A study of Mus musculus with 8 samples.

Results

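The 47 genes described here encode the proteasome, its assembly factors and its regulators. They were chosen by symbol, as genes whose names begin with Psma, Psmb, Psmc, Psmd, Psme, Psmf or Psmg followed by a number, with Psmb8 and Psmb9 left out, and they are 47 of 18193 genes that had a probe set (a group of array probes for a transcript) named for a single gene. Of 49 mouse genes that match the symbols in the RefSeq genes used here, Psme2 and Psme2b share a probe set and were not analysed here. The symbols also bring in Psmc3ip, which encodes the meiotic recombination factor Hop2, and Psme3ip1, whose product binds the activator subunit Psme3. Neither is a proteasome subunit, and without them 45 genes remain. The study compared sorted bone marrow cells of C57BL/6 mice, lineage-low with Sca1 and high cKit on their surface (LSK cells, which hold the blood stem and multipotent progenitor cells). There were 4 arrays from mice heterozygous for Jak2V617F, the activated cytokine receptor kinase of myeloproliferative neoplasms, and 4 arrays from wild type mice. Neither the age of the mice nor the driver of the mutant allele is in the labels, and both genotypes share the strain, the sort and the amplification of RNA before labelling. Values are log2 intensities deposited by the authors, 1 array per mouse, and each difference is Jak2V617F minus wild type.

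The proteasome is the barrel-shaped protease that breaks down proteins marked with ubiquitin. Its core particle has outer alpha rings, which gate entry, and inner beta rings, in which Psmb6, Psmb7 and Psmb5 carry the caspase-like, trypsin-like and chymotrypsin-like active sites. The regulatory particle caps the core. Its base holds the ATPases Psmc1 to Psmc6, which unfold the substrate, and its lid holds Psmd14, which removes the ubiquitin. In blood cells, immune beta subunits can replace the constitutive ones, with Psmb10 in the place of Psmb7. The transcription factor Nfe2l1 raises proteasome genes as a group through antioxidant response elements when protease activity falls short.

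Antioxidant response element letters were looked for in the RefSeq promoters of GRCm38.p6, from 250 bases before to 50 bases after each start, because they are the known handle for joint control of these genes. The core TGACNNNGC was searched on both strands, where N is any base. Promoters were held for 39 of the 47 genes, and 6 of these (15.4%) had the core, against 14.0% of 27025 genes with a promoter. These 6 are the catalytic subunit genes Psmb5 and Psmb6, the ATPase gene Psmc6, the lid gene Psmd12, the base chaperone gene Psmd9 and the nuclear activator gene Psme4. The Psme4 match began before the start and ran across it. The matches wholly before the start are printed below 5′ to 3′ on the strand of the gene, with the matched core in capitals.
Psmb5, chr14:54618018-54618058, minus strand: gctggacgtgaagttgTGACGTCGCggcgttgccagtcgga
Psmb6, chr11:70525332-70525356, plus strand: ggcggactaaagagagTGACGGAGC
Psmd9, chr5:123228143-123228183, plus strand: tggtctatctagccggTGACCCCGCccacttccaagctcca
Psmc6, chr14:45329581-45329621, plus strand: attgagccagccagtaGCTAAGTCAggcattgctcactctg
Psmd12, chr11:107479278-107479305, plus strand: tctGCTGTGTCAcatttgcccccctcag
The Psmc6 and Psmd12 matches are on the opposite strand and start 227 and 247 bases before the start of the gene, against 47, 9 and 31 bases for Psmb5, Psmb6 and Psmd9. The letters CCAAT, which the factor NF-Y binds, were in 15 of the 39 promoters (38.5%), against 41.1% of all genes with a promoter. Both shares were near those of genes at large.

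Transcripts of the proteasome differed little between the genotypes. No member passed the limma test with Benjamini-Hochberg adjustment over all 18193 genes at a threshold of 0.05, where 30 genes (0.165%) did, and the lowest adjusted p of a member was 0.191. Before adjustment, limma gave a p under 0.05 to 6 members with higher values (12.8%, against 11.9% of all genes) and to 1 with a lower value (2.13%, against 5.23% of all genes). Psmb11, one of the 6, had values near background. In this fit the shares are near those of all genes or below them, and the share of higher members moved with the processing. It was 25.5% (12 members, against 11.1% of all genes) with a trended robust prior. It was 4.26% (2 members) with sex as a covariate, with median centring and on the average of a gene's probe sets, against 12.5%, 8.98% and 11.7% of all genes. In bulk RNA of sorted cells, more transcript per cell and more cells of a type cannot be told apart. The differences were small and mostly above 0, in 41 of 47 members (87.2%), with a median of 0.08, a 1.06-fold difference. Over all genes 62.6% lay above 0, with a median of 0.05. The 95% limma interval lay within a 1.5-fold change in either direction for 45 of the 46 members with a mean log2 intensity above 7.94, the median of named probe sets, and Psma8 was the exception. This holds for the brightest probe set of each gene. A dimmer one of Psmf1, with a mean of 8.69, differed by -0.53 ± 0.23 (SE). For Psmb11, the dimmest member, no bound is given.

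Most members were bright, with a mean log2 intensity over 12 in 38 of the 47 genes. Among all 3365 genes that bright, a level chosen after the data were seen, 48.9% lay above 0 and the median difference was -0.0039. Among the 38 proteasome genes 33 (86.8%) lay above 0, with a median of 0.07. No member and 1 other gene of that brightness were called. This is a description of the arrays, and no test was made of the group.

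**Figure D1:**
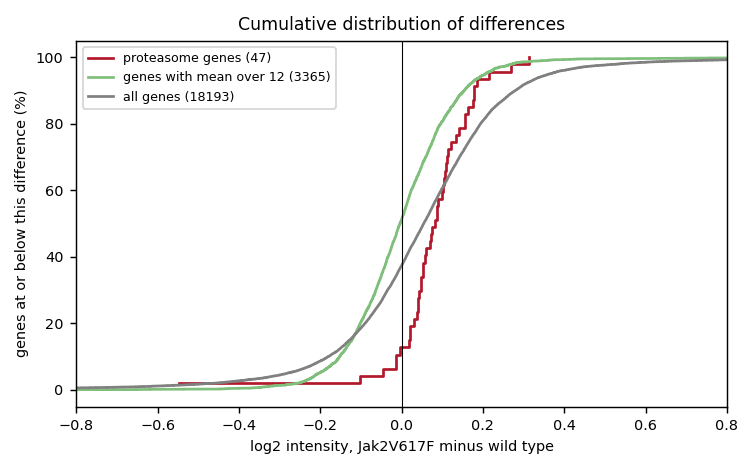
Cumulative share of genes (y axis, percent) at or below each log2 difference, Jak2V617F minus wild type (x axis), for the 47 proteasome genes, the 3365 genes with a mean log2 intensity over 12 and all 18193 genes. The proteasome curve crosses 0 at a low share, with 41 of 47 genes above 0, and reaches no further up than 0.31.

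The shift was carried by some arrays more than by others. As the median over members of the value minus the gene's mean over the 8 arrays, it was 0.08, 0.0027, -0.01 and 0.11 in Jak2V617F replicates 1 to 4, against -0.04, -0.0057, -0.09 and -0.03 in wild type replicates 1 to 4. Jak2V617F replicates 1 and 4 stood high, wild type replicate 3 stood low, and Jak2V617F replicate 3 lay below wild type replicate 2, so the groups overlapped. Of the 47 genes 28 were highest in replicate 4 among the Jak2V617F arrays (59.6%, against 25.0% of all genes) and 29 were lowest there in replicate 3 (61.7%, against 25.1%). Among the wild type arrays 26 genes were lowest in replicate 3 (55.3%, against 33.3%). Members moved together from array to array within a genotype to this extent. With 1 array per mouse, differences between mice and between array preparations cannot be told apart.

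**Figure D2:**
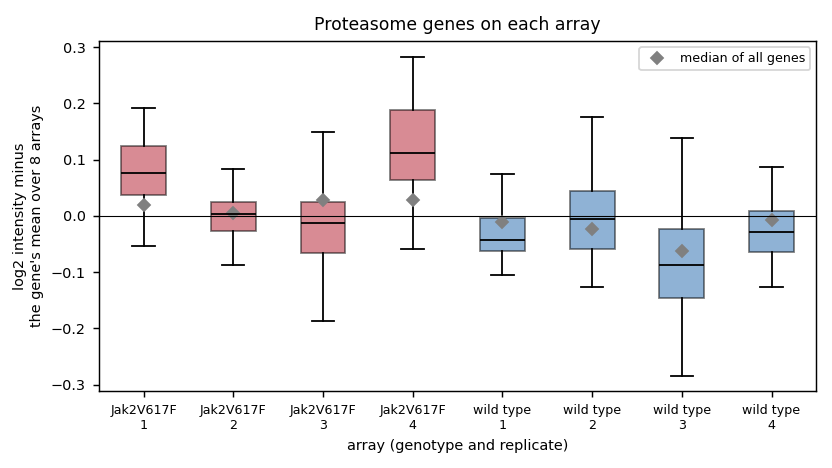
Each proteasome gene's log2 intensity minus its own mean over the 8 arrays (y axis) on each array (x axis); boxes give quartiles and median of the 47 genes, whiskers reach the farthest value within 1.5 box lengths, and grey diamonds give the median of all genes. The box medians run from -0.01 to 0.11 in Jak2V617F arrays and from -0.09 to -0.0057 in wild type arrays.

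Without Jak2V617F replicate 4 the median difference of the members was 0.05, close to that of all genes without that array (0.05). Of the 47 members 41 still lay above 0, against 62.3% of all genes. Most genes were dimmer than the members, and genes with a mean over 12 had a median of -0.0039 on all 8 arrays. Leaving out each array in turn gave 39 to 43 members above 0, against 60.5% to 63.6% of all genes. The unadjusted count of 6 higher members was 3 (6.38%) without Jak2V617F replicate 1 or wild type replicate 1, against 10.9% and 11.6% of all genes. It was 2 (4.26%) without Jak2V617F replicate 4, wild type replicate 2 or wild type replicate 3, against 8.53%, 10.6% and 8.06% of all genes. Without Jak2V617F replicate 2, Jak2V617F replicate 3 or wild type replicate 4 it was 5, 6 and 5. Those shares were 10.6%, 12.8% and 10.6%, against 12.7%, 11.1% and 11.3% of all genes. Xist and Y-linked transcripts put female mice at Jak2V617F replicate 3 and wild type replicates 1 and 2. Among the 5 male arrays (3 Jak2V617F and 2 wild type) the median was 0.12, with 41 members above 0. Over all genes it was 0.06, with 61.2% above 0.

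The 17 genes of the core particle had a median difference of 0.05, with 14 above 0. The 8 alpha ring genes had a median of 0.04 and the 7 constitutive beta genes one of 0.05, and 0 of them were called. Psma1, Psma3, Psma5, Psma6 and Psma7 differed by -0.01 to 0.10, and Psmb1, Psmb2, Psmb3 and Psmb4 by 0.02 to 0.18.

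Psma2 had 13.99, 13.93, 13.96 and 13.97 in Jak2V617F arrays, against 13.86, 13.89, 13.92 and 13.88 in wild type arrays. Psma4 had 13.36, 13.29, 13.24 and 13.39 in Jak2V617F arrays, against 13.20, 13.21, 13.22 and 13.24 in wild type arrays. The genotypes did not overlap for either alpha subunit gene, and the gaps were narrow. The differences were 0.07 ± 0.06 (SE; limma adjusted p = 0.537) for Psma2 and 0.10 ± 0.06 (SE; limma adjusted p = 0.415) for Psma4.

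Psma8, which encodes an alpha subunit of male germ cells that takes the place of Psma7, was the member with the largest difference and the one of the 7 with an unadjusted p under 0.05 that was lower. It had 9.77, 9.20, 9.45 and 9.21 in Jak2V617F arrays, against 9.76, 10.48, 9.88 and 9.71 in wild type arrays. Jak2V617F replicate 1 overlapped the wild type arrays, and wild type replicate 2 stood highest. The mean was 9.41 ± 0.27 in Jak2V617F and 9.96 ± 0.36 in wild type arrays (SD, n = 4 each), and the difference was -0.55 ± 0.19 (SE; limma adjusted p = 0.220), with a 95% interval from -0.98 to -0.12. Without wild type replicate 2 it was -0.37, and Psma8 had a single probe set.

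Of the active-site genes none was called. Psmb5 had 13.70, 13.79, 13.75 and 13.88 in Jak2V617F arrays, against 13.71, 13.80, 13.63 and 13.76 in wild type arrays. Psmb6 had 14.07, 14.00, 14.00 and 14.10 in Jak2V617F arrays, against 14.00, 13.99, 13.98 and 14.04 in wild type arrays. Psmb7 had 12.78, 12.67, 12.86 and 12.82 in Jak2V617F arrays, against 12.83, 12.96, 12.97 and 12.78 in wild type arrays. The genotypes overlapped for all 3, and the differences were 0.05, 0.04 and -0.10, with limma adjusted p from 0.491 to 0.748. Their 95% intervals ran from -0.11 to 0.21 for Psmb5, from -0.10 to 0.18 for Psmb6 and from -0.27 to 0.07 for Psmb7.

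Psmb10, the immune counterpart of Psmb7, had 13.63, 13.62, 13.51 and 13.68 in Jak2V617F arrays, against 13.61, 13.45, 13.47 and 13.56 in wild type arrays. The genotypes overlapped, and the difference was 0.09 ± 0.07 (SE; limma adjusted p = 0.538). The immune subunit genes outside the symbol rule, Psmb8 and Psmb9, differed by 0.07 each (limma adjusted p = 0.646 and 0.537). Psmb11, a subunit of the thymic epithelium, had 4.44, 4.58, 4.61 and 4.58 in Jak2V617F arrays, against 4.39, 4.36, 4.41 and 4.42 in wild type arrays. The genotypes did not overlap, but values this low can come from absent transcript (in female mice Y-linked Eif2s3y gave 5.11 to 5.37), so no size is given (limma adjusted p = 0.273).

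**Figure D3:**
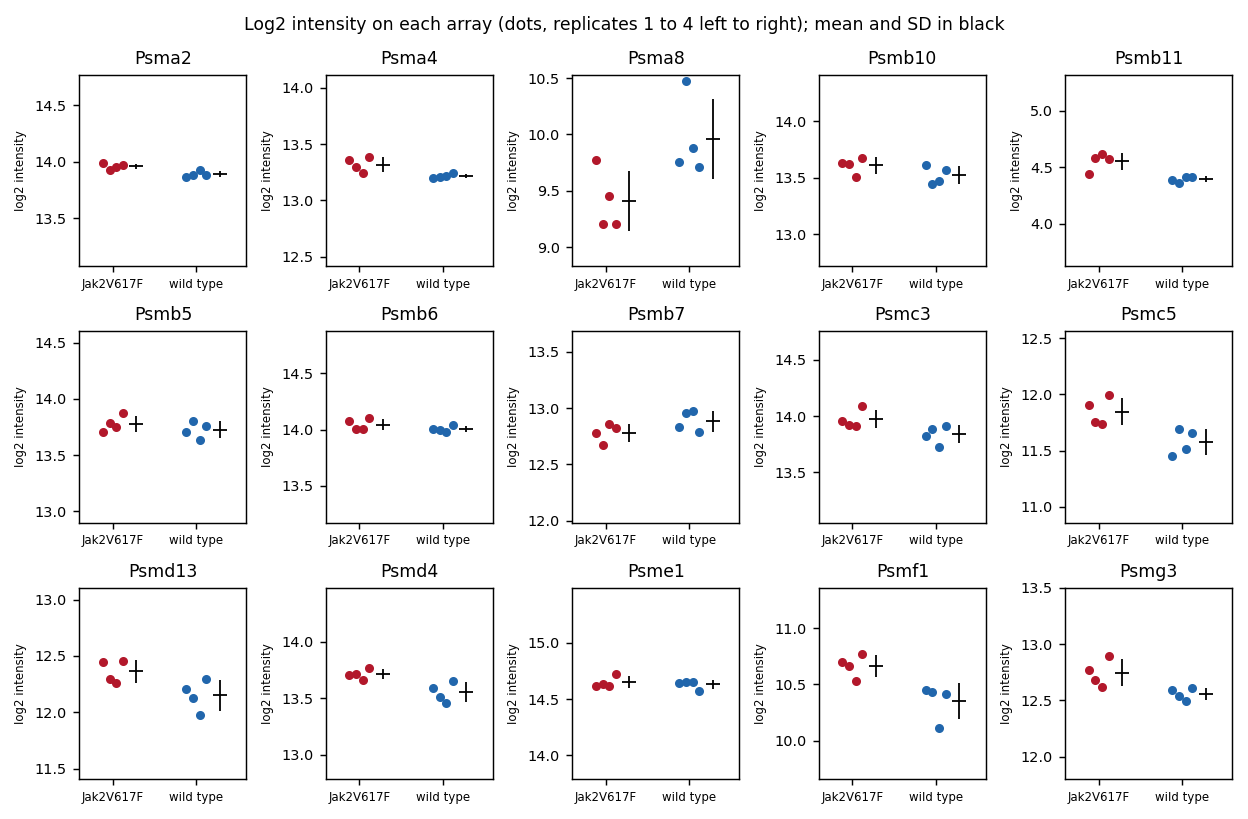
Log2 intensity (y axis, each panel spanning the same range around the mean of its gene) of 15 named members on each of 4 Jak2V617F and 4 wild type arrays; dots are arrays and black marks are mean and SD. Psmc5 and Psmf1 separate the genotypes, Psma8 is lower in 3 of 4 Jak2V617F arrays, and the active-site genes Psmb5, Psmb6 and Psmb7 overlap.

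In the regulatory particle 16 of 17 genes lay above 0, with a median of 0.11. All 6 ATPase genes lay above 0, by 0.11 to 0.27, with a median of 0.15. None was called, and the difference between the medians of core and regulatory particle was not tested.

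Psmc5, an ATPase of the base, had 11.90, 11.75, 11.74 and 11.99 in Jak2V617F arrays, against 11.45, 11.69, 11.51 and 11.66 in wild type arrays. The genotypes did not overlap, and Jak2V617F replicate 4 stood highest. The mean was 11.85 ± 0.12 in Jak2V617F and 11.58 ± 0.11 in wild type arrays (SD, n = 4 each), and the difference was 0.27 ± 0.09 (SE), or 1.20-fold, with a limma adjusted p of 0.207. It lay between 0.22 and 0.31 under the alternatives tried.

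Psmc3, an ATPase of the same ring, had 13.96, 13.92, 13.92 and 14.09 in Jak2V617F arrays, against 13.83, 13.88, 13.73 and 13.91 in wild type arrays. The genotypes came within 0.01 of each other without overlapping, for a difference of 0.13 ± 0.07 (SE; limma adjusted p = 0.370). The other ATPase genes overlapped, with differences of 0.16 for Psmc1, 0.11 for Psmc2, 0.18 for Psmc4 and 0.11 for Psmc6. A further bright probe set of Psmc4 differed by -0.02, and one of Psmc2 by 0.12.

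Among the other base genes, Psmd4, which encodes a receptor for ubiquitin chains, had 13.71, 13.72, 13.66 and 13.77 in Jak2V617F arrays, against 13.59, 13.51, 13.45 and 13.66 in wild type arrays. Jak2V617F replicate 3 and wild type replicate 4 nearly met, and the genotypes did not overlap. The difference was 0.16 ± 0.07 (SE; limma adjusted p = 0.280), and further probe sets gave 0.19 and, for a dimmer one, -0.0075. The scaffold genes Psmd1 and Psmd2 differed by 0.09 and -0.0043.

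On the brightest probe set of each gene, all 8 lid genes lay above 0, by 0.04 to 0.21, with a median of 0.09. Psmd13, a structural lid subunit, had 12.45, 12.30, 12.26 and 12.46 in Jak2V617F arrays, against 12.20, 12.13, 11.97 and 12.29 in wild type arrays. Jak2V617F replicate 3 overlapped wild type replicate 4, and the difference was 0.21 ± 0.09 (SE; limma adjusted p = 0.271). A second bright probe set gave 0.14 and a dimmer one -0.12, which stands for the gene when probe sets of shared type (named _s_at, _x_at or _a_at) are left out. Averaged over probe sets, Psmd13 was at 0.06. The deubiquitinase gene Psmd14 differed by 0.10, and Psmd3, Psmd6, Psmd7, Psmd8, Psmd11 and Psmd12 by 0.04 to 0.12. Psmd11, at 0.07, had 4 further probe sets above the median brightness, at -0.19, 0.13, 0.02 and -0.11, of which the brightest was the one at -0.19.

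**Figure D4:**
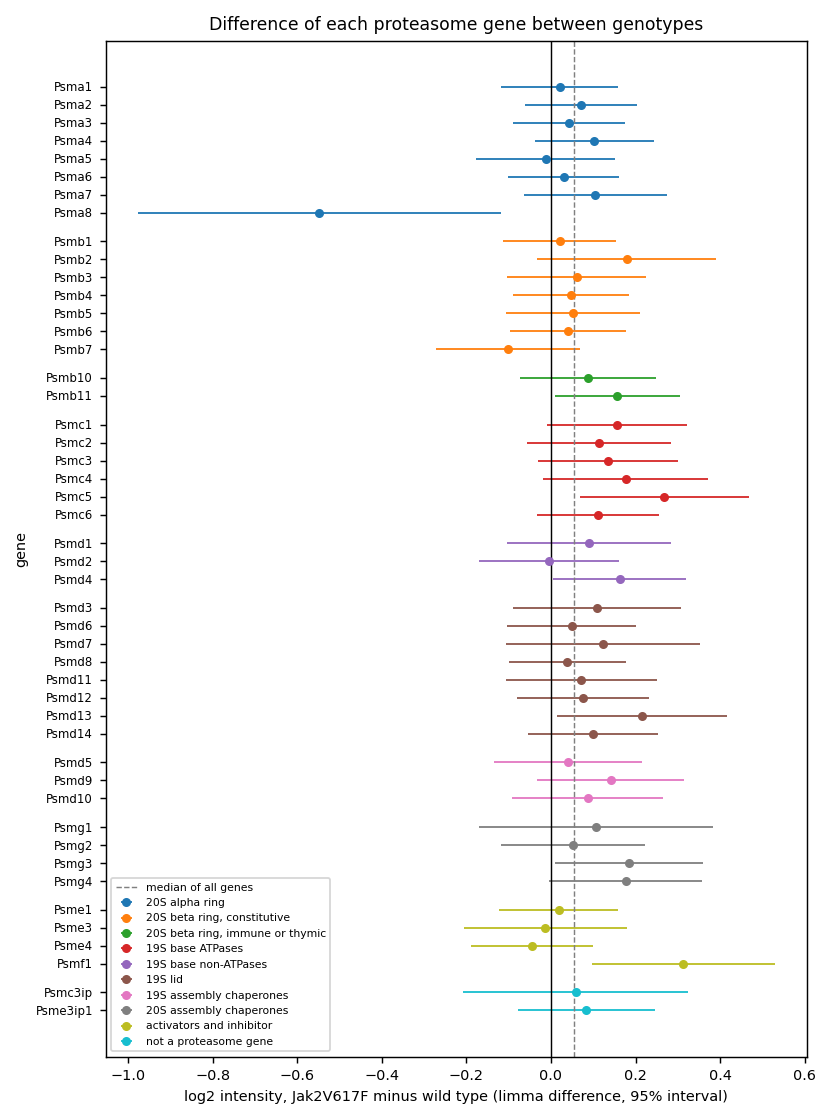
Log2 difference, Jak2V617F minus wild type (x axis, point) with its 95% limma interval (line), for each of the 47 genes (y axis), coloured by role; the dashed line is the median of all genes at 0.05. All ATPase and lid genes lie to the right of 0, most intervals cross 0, and Psma8 alone lies far to the left.

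Assembly factors also lay above 0. For the chaperones of the core, Psmg1 to Psmg4, the differences were 0.05 to 0.19, and for those of the base, Psmd5, Psmd9 and Psmd10, they were 0.04 to 0.14. A dimmer probe set of Psmd9 was at -0.29. Psmg3, which helps to build the alpha ring, had 12.77, 12.68, 12.62 and 12.90 in Jak2V617F arrays, against 12.59, 12.54, 12.49 and 12.61 in wild type arrays. The genotypes met within 0.01 without overlap, and the difference was 0.19 ± 0.08 (SE; limma adjusted p = 0.273).

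Psmf1, which encodes the proteasome inhibitor and assembly protein PI31, had the largest positive difference and the lowest p of the members. It had 10.70, 10.67, 10.53 and 10.77 in Jak2V617F arrays, against 10.45, 10.44, 10.11 and 10.42 in wild type arrays. Every Jak2V617F array was above every wild type array, and wild type replicate 3 stood apart at the low end. The mean was 10.67 ± 0.10 in Jak2V617F and 10.35 ± 0.16 in wild type arrays (SD, n = 4 each), and the difference was 0.31 ± 0.10 (SE), or 1.24-fold, with a limma adjusted p of 0.191. Its other probe sets did not move together, at 0.25, 0.06 and -0.53, and their average left 0.02 for the gene. Among male arrays the chosen probe set gave 0.45, and without wild type replicate 3 it gave 0.23.

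The activator genes lay close to 0 on their brightest probe sets. Psme1, an interferon-inducible activator subunit, had 14.62, 14.63, 14.62 and 14.73 in Jak2V617F arrays, against 14.64, 14.65, 14.66 and 14.57 in wild type arrays. The genotypes overlapped, with a difference of 0.02 (limma adjusted p = 0.894) that was -0.0073 without Jak2V617F replicate 4 and -0.0003 without wild type replicate 4. Psme3 and Psme4, of the nuclear activators, differed by -0.01 and -0.05. A further bright probe set of Psme3 was at 0.18 (limma adjusted p = 0.439 over all probe sets). Psmc3ip and Psme3ip1, the genes that are no part of the proteasome, differed by 0.06 and 0.08.

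In all, 8 of the 47 genes (17.0%) had every Jak2V617F array above every wild type array, against 6.82% of all genes, and 0 were wholly below, against 3.33% of all genes. They were Psma2, Psma4, Psmb11, Psmc3, Psmc5, Psmd4, Psmf1 and Psmg3. For 6 of the 8 the gap between the genotypes was at most 0.02, Psmb11 was near background, and members share the arrays, so the 8 do not count as separate observations.

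Members with more than 1 probe set, 26 of 47, allowed a second reading. There were 53 further probe sets, and 31 of them, from 21 genes, had a mean above 7.94. Of these 17 lay above 0 and 15 had the same sign as the probe set that represented the gene. Over all 100 probe sets of the members 69 lay above 0 and 0 were called. The counts above 0 given for the members thus hold for the brightest probe set of each gene.

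Genes around the proteasome were spread on both sides of 0. Of 37 measured genes for partners, ubiquitin handling, transcription of the proteasome and antigen processing 21 lay above 0 and 16 below, with a median of 0.01, and 0 were called. Every Jak2V617F array was below every wild type array for 4 of the 37 (Pomp, Ubqln1, Ufd1 and Nfya), against 3.33% of all genes. Wholly above were 2 of the 37 (Ngly1 and the NF-Y subunit gene Nfyc), against 6.82% of all genes. Among proteasome components and partners, 5 of 9 lay above 0, with the core maturation factor gene Pomp at -0.09, the scaffold gene Ecpas at 0.10, the lid gene Sem1 at -0.03 and the tether Akirin2, which brings proteasomes into the nucleus, at 0.0032.

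Carriers of ubiquitinated proteins had 5 of 9 genes below 0 and a median of -0.11. Ubqln1, a shuttle protein, had 12.75, 12.64, 12.67 and 12.54 in Jak2V617F arrays, against 12.81, 12.95, 13.02 and 12.82 in wild type arrays. All Jak2V617F arrays were below all wild type arrays, for a difference of -0.25 (limma adjusted p = 0.194). Ufd1, a partner of the extraction enzyme Vcp, was at -0.17 (limma adjusted p = 0.230), Ubqln4 at -0.19 and Ubqln2 at -0.12. Uba6, a ubiquitin activating enzyme, was at -0.19, and the genes for ubiquitin itself were not analysed here.

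Genes that control proteasome transcription had 7 of 11 above 0, with a median of 0.03. Nfe2l1 had 12.24, 12.17, 12.03 and 12.20 in Jak2V617F arrays, against 12.38, 12.18, 12.35 and 12.25 in wild type arrays. The genotypes overlapped, with a difference of -0.13 (limma adjusted p = 0.411). Ngly1, which processes the Nfe2l1 protein, was at 0.14, Nfya, a subunit of NF-Y, at -0.15 (limma adjusted p = 0.280) and Nfe2l3 at -0.49, where it was dim. Of the 5 other antigen processing genes listed with Psmb8 and Psmb9, 3 lay above 0 and 0 were called. Nlrc5 was at 0.18, Tap1 at 0.17 and Irf1 at 0.13, against -0.15 for Tap2 and -0.03 for Tapbp.

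No marker gene listed for the sorted cells or for other cells was called, and the lists differed in direction. Genes of the LSK gate and of stem or progenitor cells lay below 0 in 6 of 8, with a median of -0.10 and a mean log2 intensity over the list of 12.19 to 12.46 in Jak2V617F arrays and 12.27 to 12.46 in wild type arrays. Kit was at 12.67 ± 0.10 in Jak2V617F and 12.65 ± 0.14 in wild type arrays (SD, n = 4 each), and Ly6a, which encodes Sca1, was not analysed here. The stem cell transcription factor gene Mecom differed by -0.34 (limma adjusted p = 0.154) and Cd34 by -0.12 (limma adjusted p = 0.350), with every Jak2V617F array below every wild type array, and Slamf1 differed by 0.72 (limma adjusted p = 0.225). Lymphocyte genes lay above 0 in 5 of 9 (7.36 to 7.61 in Jak2V617F arrays and 7.35 to 7.53 in wild type arrays). The T cell gene Cd3e and the B cell genes Cd79a and Ms4a1 were dim, with means of 7.20, 6.49 and 4.09 in Jak2V617F and of 7.01, 6.51 and 4.26 in wild type arrays. Ighm and Cd79b were brighter, at 12.38 and 11.76 in Jak2V617F and 11.90 and 11.76 in wild type arrays. Ighm differed by 0.48 (limma adjusted p = 0.291), Cd8a by 0.25 (limma adjusted p = 0.227) and Cd4 by -0.45 (limma adjusted p = 0.188). Macrophage and dendritic cell genes lay above 0 in 13 of 13, with a mean log2 intensity over the list of 9.47 to 10.03 in Jak2V617F arrays and 8.83 to 9.39 in wild type arrays. Erythroid genes lay above 0 in 8 of 9 (9.21 to 9.98 in Jak2V617F arrays and 8.47 to 9.08 in wild type arrays), and granulocyte genes in 8 of 9 (13.08 to 13.63 in Jak2V617F arrays and 12.54 to 13.24 in wild type arrays). The median differences of the macrophage, erythroid and granulocyte lists were 0.61, 0.55 and 0.38. The largest were Cd74 at 1.18 (limma adjusted p = 0.191), Slc4a1 at 2.32 (limma adjusted p = 0.105) and Ltf at 1.41 (limma adjusted p = 0.211). The lowest were Mrc1 at 0.19, Car2 at -0.0075 and Elane at -0.01. The genotypes overlapped for Cd74 and Ltf. Every Jak2V617F array was above every wild type array for 3 of 13 macrophage and dendritic cell genes (Cd68, Adgre1 and H2-Ab1). The same held for 1 of 9 erythroid genes (Slc4a1), 1 of 9 lymphocyte genes (Cd8a) and 0 of 9 granulocyte genes, against 6.82% of all genes. Wholly below were 2 of 8 stem or progenitor genes (Mecom and Cd34) and 1 of 9 lymphocyte genes (Cd4), against 3.33% of all genes. The part of such cells in the proteasome values was not tested.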

How the data were processed

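The LSK cells of 8 mice gave total RNA that was linearly amplified and biotinylated for Affymetrix mouse expression arrays, as the labels' protocols state. Log2 intensities were deposited, 1 column per mouse. The authors made them by RMA in the affy package under R 2.11.0, per the submitters' processing notes, and that they are log2 follows from their range. RMA equalises the arrays' distributions, so a shift of most transcripts would not be seen. Array medians lay between 7.06 and 7.15, and precision is limited by having 4 arrays per genotype.

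Of 45101 probe sets 64 controls were left out, 34945 had 1 gene symbol in the platform annotation, 932 several and 9160 none. Each gene was represented by its probe set with the highest mean over the 8 arrays. Differences were tested with limma 3.58.1 in R 4.3.3 over 18193 genes, two-sided, with Benjamini-Hochberg adjustment and without covariates; labels describe separate mice. Members, lists and tests were chosen with earlier results of these data known. Per-array values were given for members among the 6 lowest p, the largest changes, active-site subunits, Psmb10, Psme1 and members whose genotypes did not overlap. The script was tested on simulated data. Alternatives are given in the closing section.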

Additional observations from a re-analysis of the deposited data

Results flagged for a closer look

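Within 1 genotype, 3 of 30 sets of 4 arrays tested among the 15 named genes held an array far from the other 3, by Dixon's test at its 95% critical value, and chance gives about 1 in 20. Psme1 was high in Jak2V617F replicate 4 (14.73) and low in wild type replicate 4 (14.57), and Psmf1 was low in wild type replicate 3 (10.11).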

How the results depend on the processing

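No proteasome gene was called under any alternative tried, and the lowest adjusted p among the 15 named genes was 0.168 (limma, trended robust prior). The median difference of the members stayed above 0, from 0.04 over all probe sets to 0.12 in male arrays, and from 0.05 to 0.11 with each array left out. Psmd13 turned to -0.12 without probe sets of shared type, and Psme1, from -0.0073 to 0.029 with each array left out, to -0.0073 and -0.0003 without Jak2V617F or wild type replicate 4. The unadjusted count of higher members, 6, was 2 to 12 over the alternatives (4.26% to 25.5% of members, against 8.06% to 12.7% of all genes). Of 252 values of named genes under alternatives 249 kept their direction. The count of genes called among all genes, 30, was 8 with the replicate block, 60 with sex as a covariate, 19 with dim genes left out, 75 with a trended robust prior, 49 on the average of a gene's probe sets, 199 at a threshold of 0.10 and 110 over all probe sets, and 13 to 40 with each array left out; the cause was not tested. Replicate numbers are only names here: same-numbered arrays had correlations of their deviations of -0.02, -0.22, -0.06 and 0.10, so arrays were not taken as paired, and with the block 0 members were called.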
